A study of Mus musculus with 12 samples.

Results

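The CTLH complex is a multi-subunit E3 ubiquitin ligase, and 10 genes that encode its subunits and an associated protein were followed in the blood of mice exposed to chronic hypoxia: Rmnd5a, Rmnd5b, Maea, Ranbp9, Ranbp10, Gid8, Armc8, Wdr26, Mkln1 and Ypel5. Every probe set (a set of short probes on the array for one transcript) was taken that the platform annotation assigns to one of these genes. This gave 30 of the 45101 probe sets on the array, all of which name a single gene. The genes were selected on measured values, namely their changes in these same comparisons of hypoxia and recovery with normoxia, so their levels and changes are given as a description with no test.

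Whole blood RNA of 12 C57Bl/10 mice, all 3 months old by the labels, was hybridized to 12 Affymetrix mouse arrays, 1 mouse to an array. The 4 NX mice breathed 21% oxygen throughout. The 4 CH mice were kept for 14 days in normobaric chronic hypoxia, in which the inspired oxygen fraction (FiO2) was stepped down from 21% and stood at 8% at harvest. The 4 REC mice had the same 14 days of hypoxia followed by 14 days at 21% FiO2. The mice were wild type and received no other agent. No blood cell type was sorted, so a level is that of the whole blood mixture, in which fewer cells of a type and less RNA per cell cannot be told apart.

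The CTLH complex attaches ubiquitin to proteins and thereby marks them for breakdown or alters their activity. It is built around a pair of RING proteins that form its catalytic core, and scaffold subunits join this core to subunits that bring in substrates. The complex works with the ubiquitin-conjugating enzyme (E2) Ube2h. In maturing red cell precursors, where ubiquitin-dependent breakdown remodels the proteome before and after the nucleus is lost, CTLH assemblies are known to change their composition, and assemblies with Ranbp10 gain weight over those with Ranbp9.

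The deposited signals are linear intensities whose trimmed mean is 150 for all arrays, and changes are given as differences of log2(signal + 16), which understates the change of dim transcripts. Median signals of the arrays ranged from 32.9 to 59.9. The ratio of 3′ to 5′ actin signal, a measure of RNA integrity, was 1.61 to 1.86 in NX, 1.91 to 2.11 in CH and 1.54 to 1.73 in REC. Spiked-in bacterial transcripts, the hybridization controls, had a mean log2 signal of 12.67 in NX, 14.29 in CH and 11.86 in REC. Arrays scaled on these controls shift the median change of all probe sets from 0.11 to -0.71 in CH against NX and from -0.10 to 0.40 in REC against NX. Values under that scaling are given below where they matter, also relative to these medians.

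The genes of the complex did not all change in one direction. Calls required a 2-fold or larger difference together with an adjusted p (limma, Benjamini-Hochberg over the whole array) under 0.05. Comparing CH with NX, 12 of the 30 CTLH probe sets were called higher and 6 lower. Over all probe sets 8.04% were called higher and 13.9% lower. In REC, 0 of the 30 were called higher and 11 lower than in NX, beside 1.62% and 2.74% of all probe sets. Between CH and REC directly, 16 were called higher and 4 lower in CH, beside 12.6% and 15.2% of all. Since the genes were chosen on these contrasts, nothing is read from the difference between these shares.

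The 4 CH arrays lay wholly above the 4 NX arrays for 13 CTLH probe sets and wholly below for 6, where 10.2% and 15.8% of all probe sets did so. The 4 REC arrays lay wholly above NX for 3 and wholly below for 14, where 8.58% and 11.8% did so. A total of 10 CTLH probe sets was called higher with hypoxia and also below NX after recovery, a pattern found in 0.953% of all probe sets. The CH and REC comparisons share the NX arrays. The median change of the 30 was 0.34 in CH and -0.75 in REC, beside 0.11 and -0.10 for all probe sets.

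This median hides a division by gene. Rmnd5a, Ranbp10, Wdr26 and Ypel5 hold 12 of the probe sets, of which 11 were called higher in CH (median change 3.17) and 11 lower in REC (median change -2.11). The other 6 genes hold 18, of which 1 was called higher and 6 lower in CH, and 0 were called in REC, where 3 lay wholly above and 3 wholly below the NX arrays. Scaled on the hybridization controls, 8 of the 30 were called higher and 13 lower in CH, beside 1.23% and 38.8% of all probe sets under that scaling. In REC the counts were then 4 higher and 8 lower, beside 17.1% and 0.914% of all. Under quantile normalization 9 were called higher and 3 lower in CH, beside 7.23% and 11.8% of all.

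**Figure D1:**
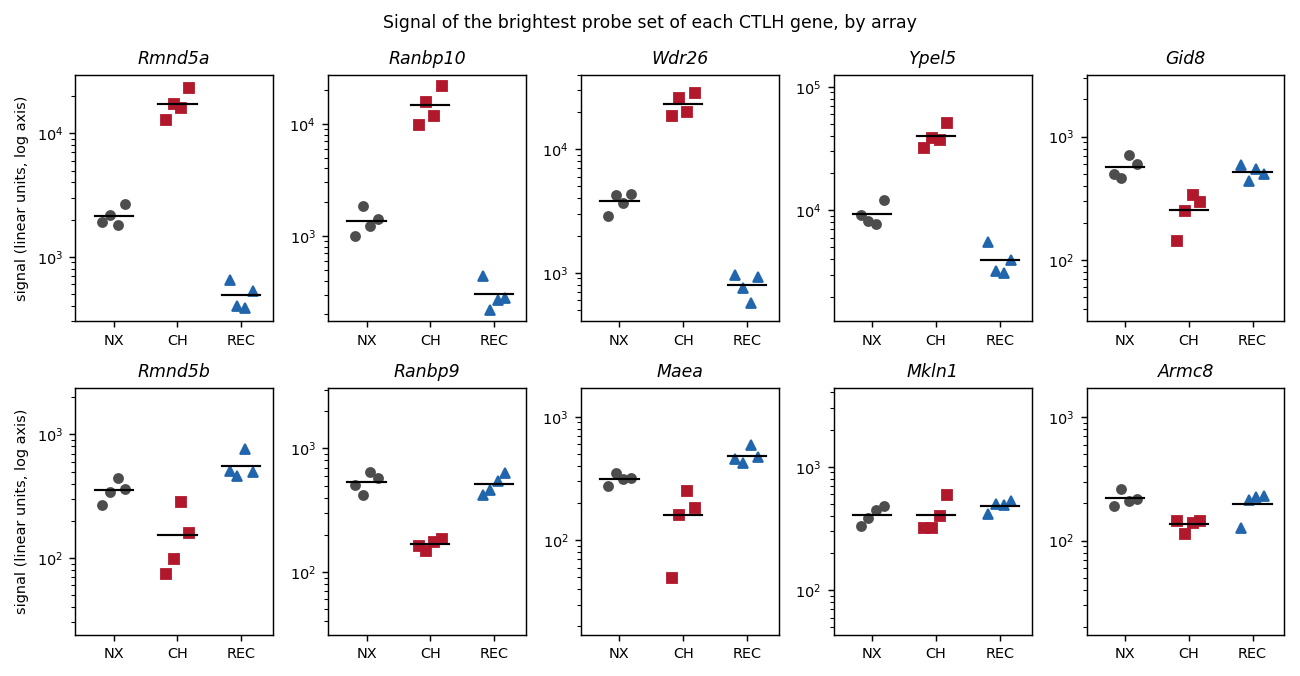
Signal of the brightest probe set of each CTLH gene on each of the 12 arrays, on a log axis, with the group mean as a line (4 arrays per group). Rmnd5a, Ranbp10, Wdr26 and Ypel5 are highest in CH and lowest in REC with no overlap of the groups. Rmnd5b, Ranbp9, Maea, Gid8 and Armc8 have their lowest mean in CH, and Mkln1 has nearly the same mean in NX and CH.

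The catalytic core is a heterodimer of a RING protein of the Rmnd5 type with Maea. Rmnd5a and Rmnd5b are paralogues, and they moved apart. For Rmnd5a, measured by 2 probe sets, the brighter (1426884_at) gave 1900, 2171, 1818 and 2675 in the NX arrays, 12850, 17350, 15990 and 23180 in CH and 644.7, 399.5, 386.8 and 532.5 in REC. Every CH array was above every NX array, and every REC array was below. Group means were 2141 ± 387 for NX, 17340 ± 4325 for CH and 491 ± 122 for REC (SD, n = 4). As a log2 difference this was 2.99 ± 0.26 (SE) between CH and NX and -2.10 ± 0.26 between REC and NX. The dimmer Rmnd5a probe set gave 3.52 and -2.12. In CH the change was 1.59 under quantile normalization and 1.38 on hybridization control scaling, or 2.09 relative to the median of all probe sets.

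For Rmnd5b, the single probe set gave 266.0, 339.7, 445.7 and 358.1 in NX, 74.5, 98.8, 285.8 and 158.2 in CH and 501.9, 460.8, 762.5 and 495.2 in REC. CH was lower than NX in mean (154 ± 94 against 352 ± 74, SD, n = 4 each), but CH replicate 3 lay within the NX range. The REC arrays were all above the NX arrays. The change was -1.25 ± 0.34 (log2, SE) in CH, which was called, and 0.63 ± 0.34 in REC, which was not. Without CH replicate 1 the CH difference was -0.995 and the call was lost, as it was under quantile normalization (-1.001). Hybridization control scaling gave -2.63 in CH and 1.43 in REC, or -1.92 and 1.02 relative to the medians of all probe sets, and both were called.

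Maea, the RING partner of the core, is also known as the erythroblast macrophage protein. Its brighter probe set gave 275.2, 349.5, 313.5 and 316.4 in NX, 49.5, 158.6, 249.8 and 182.4 in CH and 451.4, 418.7, 593.8 and 475.2 in REC. All CH arrays were below and all REC arrays above the NX range. The log2 difference was -1.07 ± 0.35 in CH and 0.60 ± 0.35 in REC. The CH call was fragile: it was lost under quantile normalization (-0.79), and without NX replicate 2, 3 or 4 or CH replicate 1 or 2, with a difference of -0.65 without CH replicate 1. On hybridization control scaling it was -2.45 in CH and 1.39 in REC, or -1.74 and 0.99 relative to the medians, and both were called. A second, dim Maea probe set moved the other way, from a mean signal of 11.4 ± 2.7 in NX to 40.4 ± 21.5 in CH and 2.66 ± 2.07 in REC, with log2 differences of 0.98 and -0.56 that were not called.

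**Figure D2:**
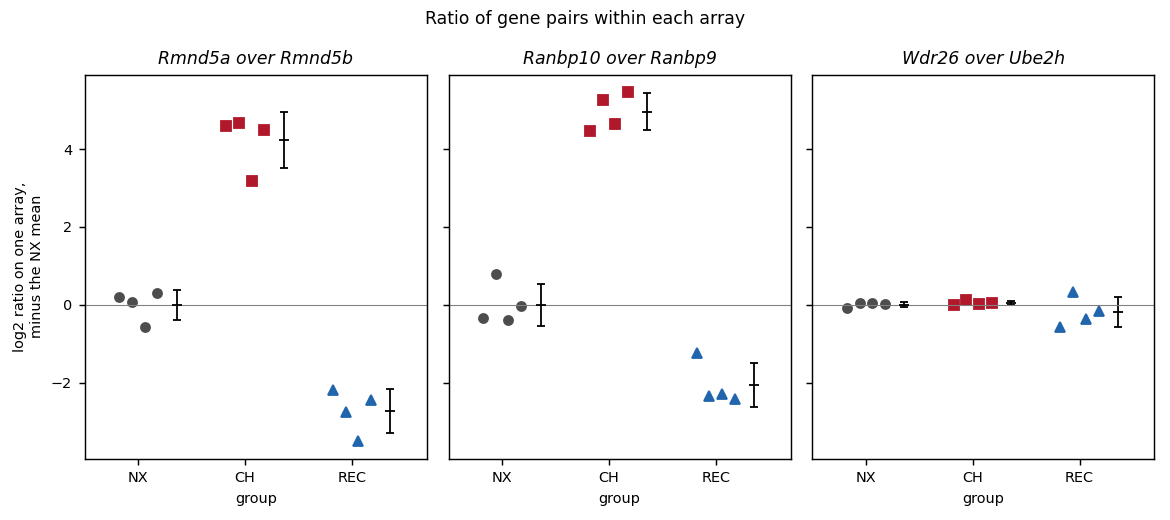
Log2 ratio of 2 genes (brightest probe sets) measured on the same array, less its mean over the NX arrays, for Rmnd5a over Rmnd5b, Ranbp10 over Ranbp9 and Wdr26 over Ube2h. Points are arrays, and bars beside them give the mean and SD of 4 arrays. The paralogue ratios are at 3.17 or higher on every CH array and at -1.23 or lower on every REC array, while the ratio of Wdr26 to Ube2h lies between -0.56 and 0.34 on all 12 arrays.

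Ranbp9 and Ranbp10 are the second paralogue pair, scaffold proteins with SPRY and LisH domains that link the core to the other subunits. The brighter Ranbp10 probe set gave 997.7, 1834, 1239 and 1413 in NX, 9696, 15570, 11780 and 21860 in CH and 442.4, 217.8, 266.5 and 282.1 in REC. The 3 groups did not overlap. Expressed as log2 differences, CH differed from NX by 3.38 ± 0.31 and REC by -2.13 ± 0.31, and the other probe set gave 3.603 and -1.98. On hybridization control scaling the CH difference was 1.76, or 2.48 relative to the median of all probe sets.

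Ranbp9 gave 508.0, 420.0, 649.4 and 580.5 in NX, 161.6, 147.7, 175.3 and 183.9 in CH and 420.1, 463.3, 547.3 and 627.5 in REC on its brighter probe set. All CH arrays were below all others, and REC overlapped NX throughout. The log2 difference was -1.59 ± 0.23 in CH and -0.07 ± 0.23 in REC, a value whose sign turns with scaling on the controls (0.73). This probe set carries the suffix x, which marks probes that may also bind other transcripts. The second Ranbp9 probe set, without that suffix, was also called lower in CH (-1.27 ± 0.26). In REC it gave -0.93 ± 0.26, which was not called, though all REC arrays (50.5 to 92.7) lay below all NX arrays (126.2 to 181.5).

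Relative to its NX mean, the log2 ratio of Rmnd5a to Rmnd5b was 4.59, 4.69, 3.17 and 4.50 in the CH arrays and -2.20, -2.75, -3.51 and -2.45 in the REC arrays, while the NX arrays lay between -0.56 and 0.29. The log2 ratio of Ranbp10 to Ranbp9 was 4.47, 5.27, 4.64 and 5.47 in CH and -1.23, -2.34, -2.30 and -2.41 in REC, with NX between -0.39 and 0.78. On the brightest probe sets, both paralogue ratios were therefore raised on each CH array and reduced on each REC array. No ratio was formed with the second Ranbp9 probe set, which was itself lower in REC (-0.93), so the Ranbp values hold for the probe set with the suffix x only. The mean changes were 4.24 ± 0.71 in CH and -2.73 ± 0.57 in REC for the Rmnd5 pair and 4.96 ± 0.48 and -2.07 ± 0.56 for the Ranbp pair (SD, n = 4 arrays). The Rmnd5 ratio in CH was 4.01 on hybridization control scaling and 2.59 under quantile normalization, and the Ranbp ratio 4.78 and 3.49. In REC the ratios under these scalings ran from -3.12 to -2.09. The ratio of Rmnd5a to Maea, its RING partner, changed by 4.06 ± 0.70 in CH and -2.70 ± 0.46 in REC.

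Wdr26 is a WD40 repeat subunit that joins CTLH units into larger assemblies and recruits substrates. It was covered by 6 probe sets. The brightest gave 2873, 4294, 3695 and 4382 in NX, 18460, 26000, 20010 and 28810 in CH and 967.4, 758.0, 564.1 and 921.6 in REC, with no overlap between groups. This was a log2 difference of 2.604 ± 0.26 in CH and -2.23 ± 0.26 in REC. Of the 6 probe sets, 5 were called higher in CH, with differences from 2.604 to 3.41, and all 6 lower in REC, from -2.69 to -1.02. The exception in CH (0.34 ± 0.27) was 1438234_at, whose NX and CH arrays overlapped. The call of the brightest probe set in CH was lost under quantile normalization (0.94) and on hybridization control scaling (0.99, or 1.70 relative to the median of all probe sets). The cause of the difference between the scalings was not tested.

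Mkln1, a kelch repeat protein that takes a place similar to that of Wdr26 in the larger assemblies, showed no called rise in CH. Its brightest probe set gave 331.4, 382.9, 444.6 and 476.4 in NX, 318.3, 321.1, 398.5 and 595.4 in CH and 411.9, 502.5, 486.6 and 525.6 in REC. The groups overlapped, and the log2 differences were -0.04 ± 0.25 in CH and 0.24 ± 0.25 in REC. The CH value was 0.32 under quantile normalization and -1.56 on hybridization control scaling, so it has no settled sign. In REC that last scaling gave 1.03, or 0.63 relative to the median of all probe sets, and both of its values were called. Among the other 4 Mkln1 probe sets, 1436096_at was called lower in CH (-1.55 ± 0.40), and the rest lay between -0.06 and 0.33 in CH. In REC all of these 4 were below NX in mean, unlike the brightest, with differences from -1.07 to -0.73. None of them was called in REC, though the REC arrays of 1436096_at (-1.05) lay wholly below NX.

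Gid8 is the small LisH scaffold that holds the core and the Ranbp subunits together. Its 3 probe sets disagreed. The brightest (1455254_at) gave 497.3, 460.6, 704.7 and 597.1 in NX, 143.6, 249.9, 334.6 and 293.8 in CH and 586.5, 435.8, 547.9 and 500.9 in REC, a log2 difference of -1.14 ± 0.27 in CH and -0.11 ± 0.27 in REC. The second (1428824_at) gave 176.7, 246.6, 205.6 and 153.3 in NX, 637.1, 982.1, 871.9 and 994.4 in CH and 327.6, 273.5, 312.8 and 273.0 in REC, a difference of 2.07 ± 0.23 in CH and 0.58 ± 0.23 in REC. On both, no CH array overlapped the NX range, in opposite directions. The third gave -0.40 ± 0.24 in CH and was not called. Whether the probe sets measure different Gid8 transcripts was not tested, so no direction is given for the gene. The CH call of the brightest was lost under quantile normalization (-0.84) and without CH replicate 1 (-0.90).

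Armc8, the armadillo repeat scaffold on which the substrate receptor Gid4 docks, was called in neither CH nor REC on any of 5 probe sets. The brightest gave 190.8, 262.0, 208.5 and 216.8 in NX, 145.4, 114.1, 139.8 and 143.9 in CH and 126.3, 214.9, 226.1 and 228.0 in REC. All CH arrays lay below NX, with a log2 difference of -0.63 ± 0.24. On hybridization control scaling this was -2.01, or -1.30 relative to the median of all probe sets, and it was called. In CH the differences of the other 4 Armc8 probe sets ran from -0.55 to 0.75.

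Ypel5 is a small zinc-binding protein of the yippee family that associates with the complex through Wdr26. Its brighter probe set gave 9240, 8139, 7744 and 12070 in NX, 31940, 38340, 37220 and 50960 in CH and 5497, 3218, 3101 and 3977 in REC. The groups did not overlap. On the log2 scale the difference was 2.09 ± 0.26 in CH and -1.25 ± 0.26 in REC, and the other probe set gave 2.16 and -0.65, the last not called. The CH difference depended on the scaling: it was 0.27 under quantile normalization and 0.48 on hybridization control scaling (1.19 relative to the median of all probe sets), and neither was called. The REC call was lost on that scaling (-0.44), with arrays centred on their median (-1.09), and without NX replicate 4 (-1.12) or REC replicate 2 (-1.16) or 3 (-1.15).

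**Figure D3:**
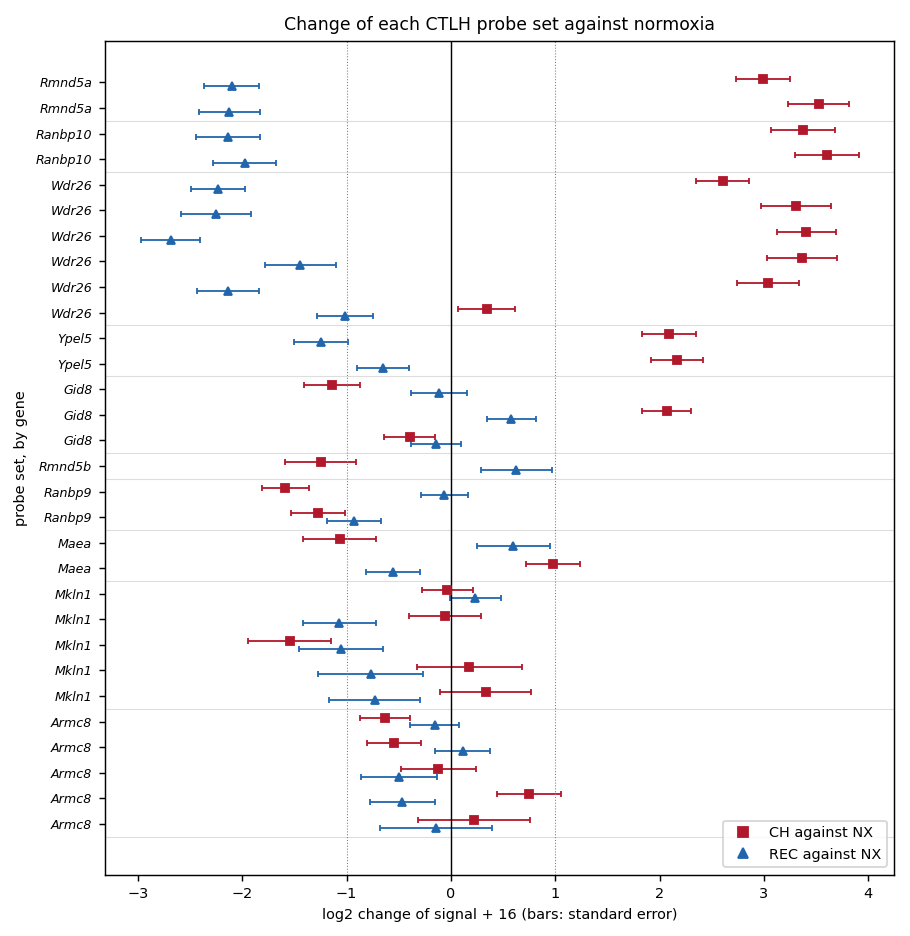
Log2 change of each of the 30 CTLH probe sets in CH and in REC against NX, with its standard error. Rows are grouped by gene, with the brightest probe set of a gene on top, and dotted lines mark a 2-fold change. The probe sets of Rmnd5a, Ranbp10, Wdr26 and Ypel5 lie to the right in CH and to the left in REC, and those of Gid8, Maea, Mkln1 and Armc8 lie on both sides in CH.

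Sequences upstream of the annotated starts were set beside this division. RefSeq promoter windows (GRCm38.p6) were at hand for 8 of the 10 genes, in 11 windows, and the 250 bases before each start were read. The windows of Rmnd5a, Wdr26 and Ypel5 (the first of its windows) are shown as those of genes higher in CH, with that of Rmnd5b for contrast within the paralogue pair. Capitals mark the letters of a GATA motif (AGATAA, with T also allowed as its first letter and G as its last) or of the KLF-type motif CCNCNCCC, searched on both strands, where matches may overlap.
Rmnd5a, chr6:71440638-71440887, minus strand: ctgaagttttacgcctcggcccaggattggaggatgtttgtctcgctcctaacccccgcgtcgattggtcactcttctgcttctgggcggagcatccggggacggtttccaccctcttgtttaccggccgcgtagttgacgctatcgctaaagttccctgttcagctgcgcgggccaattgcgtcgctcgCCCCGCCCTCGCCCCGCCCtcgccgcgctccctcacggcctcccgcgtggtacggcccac
Wdr26, chr1:181211979-181212228, minus strand: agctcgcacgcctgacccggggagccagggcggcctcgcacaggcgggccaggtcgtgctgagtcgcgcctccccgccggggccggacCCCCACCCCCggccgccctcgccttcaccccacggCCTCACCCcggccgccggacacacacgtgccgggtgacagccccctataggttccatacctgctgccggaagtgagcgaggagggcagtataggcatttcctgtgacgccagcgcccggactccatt
Ypel5, chr17:72836378-72836627, plus strand: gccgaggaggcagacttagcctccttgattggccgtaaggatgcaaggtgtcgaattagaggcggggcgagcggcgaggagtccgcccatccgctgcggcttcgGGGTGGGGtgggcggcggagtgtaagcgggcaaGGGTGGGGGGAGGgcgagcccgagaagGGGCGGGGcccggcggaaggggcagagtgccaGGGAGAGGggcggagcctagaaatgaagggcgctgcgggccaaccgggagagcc
Rmnd5b, chr11:51635897-51636146, minus strand: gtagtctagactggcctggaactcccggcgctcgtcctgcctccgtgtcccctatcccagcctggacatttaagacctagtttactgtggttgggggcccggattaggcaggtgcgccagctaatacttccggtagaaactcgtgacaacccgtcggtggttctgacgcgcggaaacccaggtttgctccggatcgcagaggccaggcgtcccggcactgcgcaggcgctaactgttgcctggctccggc

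The KLF-type letters matched at 3 places for Rmnd5a, 3 for Wdr26 and 5 for Ypel5, and at 0 for Rmnd5b. They occur in 45.9% of the 32851 windows of all genes, and also in the windows of Ranbp9 (1), Mkln1 (1), Gid8 (3, 7 and 1 in its 3 windows) and Armc8 (3), genes not called higher in CH on their brightest probe set. A GATA motif, held by 26.5% of all windows, was not matched in the 4 windows shown, but it was matched in the second Ypel5 window (1), in Armc8 (2) and in the second and the third Gid8 windows (1 and 3). The letters ACGTG, searched as the motif of a hypoxia response element (HRE), were held by 16.6% of all windows. Of the 11 windows only that of Wdr26 matched, where both strands of one E-box-like CACGTG were counted. CCAAT (33.8%) matched at 3 places in Rmnd5a and 1 in the Ypel5 window shown, and TGACGTCA (1.55%) matched in none of the 11. A match describes letters and is not a binding site.

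Among the partners of the complex, Ube2h, its E2, rose in CH and fell in REC. These partner genes are no members, and their adjusted p-values come from limma over all probe sets. The partner lists too were chosen with earlier results of these data known, so these p-values are given as a description. The brightest Ube2h probe set gave 4293, 5871, 4990 and 6081 in NX, 25800, 33310, 27440 and 38750 in CH and 2011, 840.7, 1021 and 1458 in REC. The log2 difference was 2.55 ± 0.28 in CH (adjusted p = 2.18e-05, limma) and -2.05 ± 0.28 in REC (adjusted p = 0.00152, limma). All 4 Ube2h probe sets were called higher in CH, and 1 of them lower in REC. In CH the value of the brightest was 0.79 under quantile normalization and 0.94 on hybridization control scaling (1.65 relative to the median of all probe sets), and neither was called. The log2 ratio of Wdr26 to Ube2h changed by only 0.05 ± 0.05 in CH and by -0.19 ± 0.38 in REC (SD, n = 4 arrays).

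Gid4, the substrate receptor for proteins with an N-terminal proline, had a difference of 0.53 ± 0.23 in CH (adjusted p = 0.103, limma) and -0.06 ± 0.23 in REC (adjusted p = 0.937, limma). Of its 8 probe sets, 1 was called, lower in CH (-1.34 ± 0.39). That probe set was dim, and its CH arrays (1.87 to 54.3) overlapped its NX arrays (51.0 to 82.8). The brightest, by contrast, had all CH arrays (345.8 to 518.8) above all NX arrays (222.2 to 316.0). The same held for the second and the third in brightness, with differences of 0.52 and 0.895, under the 2-fold minimum. The Gid4 value in CH was -0.98 on hybridization control scaling, so its sign depends on the scaling.

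The Ypel paralogues did not move alike. Ypel3 rose by 2.31 ± 0.32 in CH (adjusted p = 0.000143, limma) and Ypel4, which was dim in NX, by 2.53 ± 0.28 (adjusted p = 2.41e-05, limma). Ypel2 fell by 1.34 on the log2 scale (adjusted p = 0.00146, limma). For Ypel1 the difference was -0.21 (adjusted p = 0.702, limma). None of the 8 probe sets of these 4 genes was called in REC by limma, while 0 were higher and 2 lower at an unadjusted p under 0.05, and Ypel4 was called lower in REC without NX replicate 1 (-1.05). Ypel3 in CH was 0.70 and not called on hybridization control scaling. The ratio of Ypel5 to Ypel2 changed by 3.44 ± 0.29 in CH and -1.39 ± 0.19 in REC (log2, SD, n = 4 arrays).

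Among RNAs of reported CTLH substrates, 19 probe sets measured Hbp1, Zmynd19, Ddx21, Ddx50, Hmgcs1 and Nmnat1. Of these, 7 were called lower and 1 higher in CH, beside 13.9% and 8.04% of all probe sets. Ddx21, an RNA helicase of the nucleolus, had a difference of -2.03 ± 0.34 (adjusted p = 0.000546, limma) and Hmgcs1, a cholesterol synthesis enzyme, -1.60 ± 0.33 (adjusted p = 0.00236, limma). Ddx50, a paralogue of Ddx21, had -1.37 (adjusted p = 0.00686, limma) and the transcription factor Hbp1 -1.13 (adjusted p = 0.00938, limma), a call lost without CH replicate 2 (-0.95) and under quantile normalization (-0.79). The 1 higher probe set was a dim one of Hbp1 (1.01). Nmnat1, an enzyme of NAD synthesis, gave -0.70 (adjusted p = 0.188, limma) and Zmynd19 0.02 (adjusted p = 0.972, limma). In REC 0 of the 19 were called by limma, with 0 higher and 1 lower at an unadjusted p under 0.05. Protein levels were not measured.

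Among genes that share the LisH or WD40 architecture of the complex, 19 probe sets measured Smu1, Wdr47, Pafah1b1, Tbl1x and Tbl1xr1. In CH 0 of these were called higher by limma (2 at an unadjusted p under 0.05) and 7 lower. Over all probe sets 8.04% were called higher and 13.9% lower, so more lower than higher calls was also the pattern of the whole array. Smu1, a splicing factor, had a difference of -1.63 (adjusted p = 0.000265, limma). Tbl1xr1 and Tbl1x, corepressor subunits, had -1.56 (adjusted p = 0.000399, limma) and -1.24 (adjusted p = 0.00637, limma). The Tbl1x call was lost under quantile normalization (-0.96). Pafah1b1, a dynein regulator, had -1.51 (adjusted p = 0.000465, limma) on its brightest probe set, but its probe sets disagreed. A nearly as bright one (1460199_a_at) gave 0.79 ± 0.24 in CH (adjusted p = 0.0223, limma), under the 2-fold minimum, and was called higher in CH than in REC (1.17, adjusted p = 0.00148, limma). Wdr47 gave -0.71 (adjusted p = 0.0566, limma). Of 8 probe sets of other Ran-binding proteins, 2 were called lower in CH, for Ranbp1 (-1.23, adjusted p = 0.0341, limma) and Ranbp3 (-1.11, adjusted p = 0.0409, limma), and 0 higher by limma, also at an unadjusted p under 0.05. The Ranbp1 call was lost without NX replicate 1, 2 or 3 or CH replicate 1, 2 or 4, and that of Ranbp3 without NX replicate 2, 3 or 4, CH replicate 1 or 2 or any REC array, with differences of -1.27 to -0.85 and -1.12 to -0.74. For Ranbp2, a nuclear pore protein, the brightest probe set gave 0.06 in CH (adjusted p = 0.854, limma), and 2 of its 4 probe sets were called lower in REC. Over all 66 partner probe sets, 7 were called higher and 18 lower in CH, beside 8.04% and 13.9% of all probe sets. These counts became 1 and 39 on hybridization control scaling, where 1.23% and 38.8% of all probe sets were called. In REC 0 were higher by limma (3 at an unadjusted p under 0.05) and 5 lower, and 1 or 2 lower when any 1 NX or REC array was left out.

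Blood cell markers moved with the groups. The summed signal of 12 erythroid markers, Alas2, Slc4a1, Epb42 and Gata1 among them, was 22310 to 33730 in NX, 112900 to 181100 in CH and 5453 to 16160 in REC. All 12 were called higher in CH and 7 lower in REC, and their mean log2 level changed by 3.27 in CH and -1.46 in REC. The summed signal of 4 B cell markers was 15040 to 18790 in NX, 1835 to 10840 in CH and 18760 to 21510 in REC, and that of 4 T cell markers was 3361 to 5036, 776.8 to 3117 and 6889 to 7456. All 4 markers of each were called lower in CH. The mean log2 level of 4 markers each changed by 0.00 in CH and -0.10 in REC for platelets, -0.32 and -0.20 for neutrophils and -1.02 and 0.17 for monocytes. That of 3 NK cell markers changed by -0.50 and 0.58, but these markers disagreed, with 1 called higher and 1 lower in CH. No marker of any list lay at or below a signal of 16 on all arrays. The part of the cell mixture in the CTLH values was not tested.

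The CTLH genes were also set against the mean of the 12 erythroid markers on the same array. Each such value is the gene's own change less the change of that mean, so the division of the genes is the same one in another form. The level of Ranbp10 over this mean changed by 0.11 ± 0.13 in CH and -0.68 ± 0.24 in REC (log2 difference from the NX mean, SD, n = 4 arrays). For Rmnd5a the changes were -0.28 ± 0.14 and -0.65 ± 0.17, for Wdr26 -0.67 ± 0.13 and -0.78 ± 0.28, and for Ypel5 -1.18 ± 0.17 and 0.21 ± 0.17. Ube2h gave -0.72 ± 0.14 and -0.59 ± 0.12. The largest departure of these 5 genes from the erythroid mean was thus that of Ypel5 in CH. On their brightest probe sets, the other members fell behind this mean by far more in CH and exceeded it in REC, from -3.31 and 1.69 for Mkln1 to -4.86 and 1.39 for Ranbp9. The second Gid8 probe set (1428824_at), higher in CH by 2.07, was not set against this mean, so for Gid8 the value holds for its brightest probe set only.

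**Figure D4:**
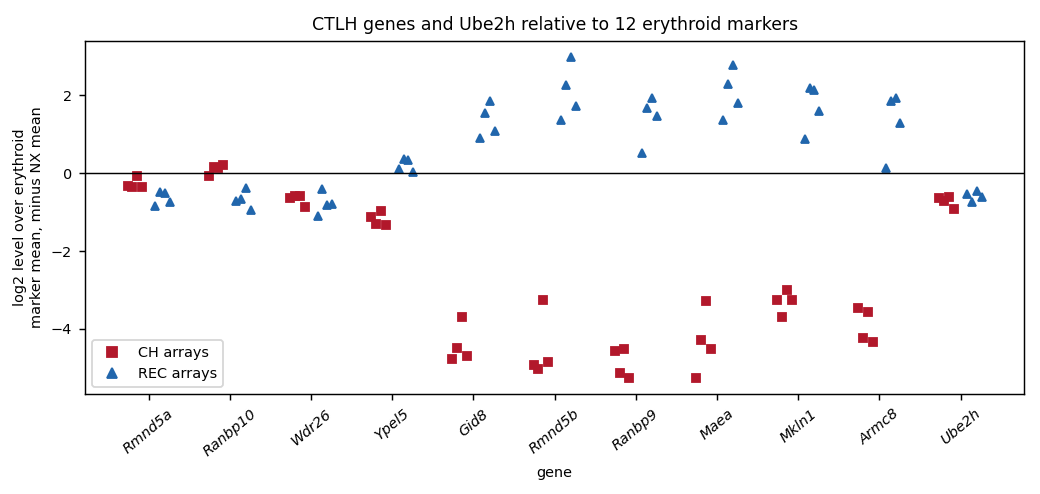
Log2 level of each CTLH gene and Ube2h (brightest probe set) over the mean of 12 erythroid markers on the same array, less the NX mean, for the 4 CH and 4 REC arrays. Rmnd5a, Ranbp10, Wdr26, Ypel5 and Ube2h lie between -1.32 and 0.22 on the CH arrays and between -1.10 and 0.37 on the REC arrays, and the other 6 genes lie at -3.01 or lower on every CH array and at 0.12 or higher on every REC array.

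Differences among mice of the same group, which the choice of the genes did not use, were examined by removing the group means. Each gene was taken by its brightest probe set, so the Gid8 probe set that rose in CH is not included. Over the 12 arrays, the Pearson r between Rmnd5a and Ypel5 was 0.94 (0.93 over the 8 NX and REC arrays), between Rmnd5a and Wdr26 0.84, between Rmnd5a and Ranbp10 0.83 and between Ranbp10 and Wdr26 0.79. Without the CH arrays these last 3 were 0.81, 0.72 and 0.69, and under quantile normalization of all arrays 0.56, 0.58 and 0.59. The lowest of this set, Ranbp10 with Ypel5 (0.67), was 0.525 without CH and 0.52 under quantile normalization. A second set held Maea and Gid8 (0.83), Rmnd5b and Maea (0.82) and Rmnd5b and Gid8 (0.80). Without the CH arrays these values were 0.19, 0.80 and 0.63. The paralogues did not vary together: r was 0.09 for Rmnd5a and Rmnd5b and -0.24 for Ranbp9 and Ranbp10. The median over all 45 pairs was 0.37, beside 0.13 over pairs of 6477 genes. Without the CH arrays the median over the 45 pairs was 0.19, and the value over the 6477 genes was not computed for that setting. Arrays share their scaling and their cell mixture across genes, and these correlations are a description.

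**Figure D5:**
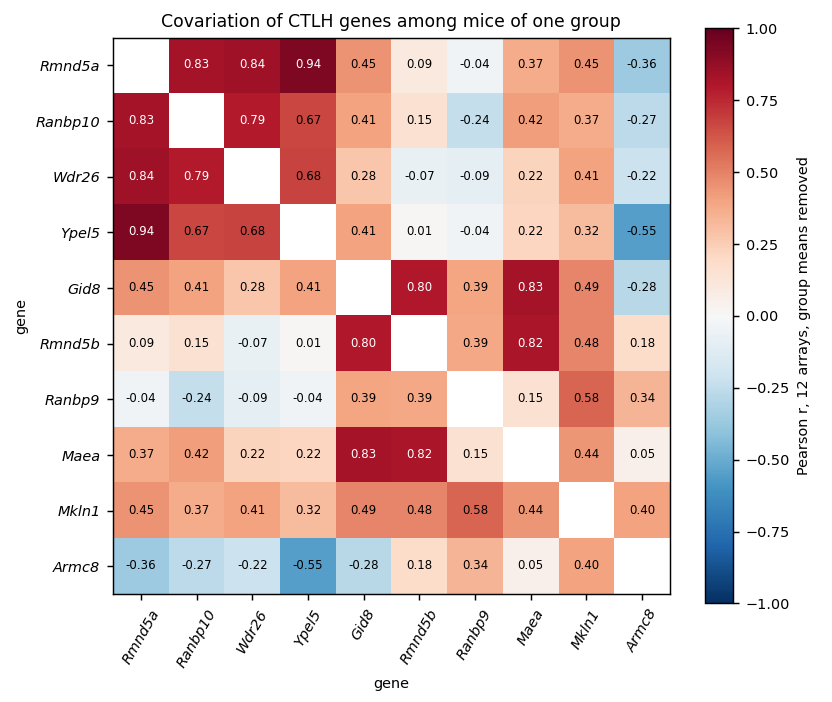
Pearson r between CTLH genes (brightest probe sets) over 12 arrays after the mean of each group was removed, from blue (-1) to red (1). Rmnd5a, Ranbp10, Wdr26 and Ypel5 form a block of 0.67 to 0.94 in the upper left, and Gid8, Rmnd5b and Maea form another of 0.80 to 0.83.

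Within groups, the first set also varied with Ube2h, with r of 0.88 for Rmnd5a, 0.86 for Ranbp10, 0.81 for Ypel5 and 0.80 for Wdr26. With the erythroid marker mean r was 0.90 for Ranbp10, 0.87 for Rmnd5a, 0.86 for Wdr26 and 0.76 for Ypel5. Without the CH arrays these were 0.86, 0.83, 0.81 and 0.68. The platelet marker mean gave 0.92 for Rmnd5a, 0.87 for Ypel5, 0.79 for Wdr26 and 0.78 for Ranbp10 (0.95, 0.855, 0.79 and 0.72 without CH). For the neutrophil marker mean r of these genes was -0.27 to 0.14 over 12 arrays and 0.31 to 0.68 without CH. For Rmnd5b, r with the B cell marker mean was 0.93 over 12 arrays and 0.92 without CH, beside Maea (0.78, and 0.60 without CH) and Gid8 (0.73, and 0.57 without CH). With the T cell marker mean r was 0.79 for Rmnd5b (0.60 without CH), 0.52 for Maea (0.64) and 0.46 for Gid8 (0.27). Armc8, at -0.40 with the erythroid mean and 0.15 with the B cell mean, and Ranbp9, at -0.15 and 0.29, followed neither closely.

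Genes with the most similar profile over the 12 arrays were sought among 9905 probe sets with a mean log2 level of at least 7. Group means were kept in these profiles, so r includes the group changes on which the CTLH genes were chosen. Pairs of Rmnd5a, Ranbp10, Wdr26 and Ypel5 themselves had r of 0.985 to 0.996, so a high r is not particular to the genes named. For Rmnd5a they were Slc7a5 (r = 0.999), an amino acid transporter subunit, and Kdm7a (0.998), a histone demethylase. For Wdr26 they were Zbtb44 (0.998) and again Kdm7a (0.997), for Ranbp10 Lmo2 (0.998), an erythroid transcription cofactor, and Otud5 (0.998), a deubiquitinase, and for Ypel5 the autophagy protein gene Map1lc3b (0.999) and Gnas (0.999). The brightest probe sets of the remaining members had other neighbours. They were Rheb (0.990) and the lymphocyte GTPase Gimap1 (0.987) for Rmnd5b, Mtmr6 (0.991) and Lsm14a (0.980) for Ranbp9, Tpra1 (0.982) and Rnf113a2 (0.975) for Maea, and Ids (0.981) and Rnf2 (0.967) for Gid8. The closest were less alike for Mkln1 (Eid1, 0.913, and Mtfr1l, 0.905) and Armc8 (Parp11, 0.915, and Rpap1, 0.895).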

How the data were processed

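Blood RNA was processed and hybridized by the authors. For the amplification the labels name an isothermal single-primer method and the paper a one-cycle in vitro transcription. The deposited values are linear intensities, 1 per probe set and array, and all arrays have the same trimmed mean, as after global scaling. The paper names the Affymetrix operating software as where raw probe set intensities were kept, without saying that it computed these signals. The paper's own analysis used GC-RMA, whose values are on a log2 scale, unlike these. No detection call, background value or scan date is given, so the number of arrays limits the precision. Arrays were grouped by title, against 1 label field in which CH mice are called normoxic. No 2 arrays were duplicates (highest r 0.9772).

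Gene names came from the platform annotation (34958 name 1 gene, 932 several, 9211 none), with symbols matched to RefSeq by gene number for 34754. Partner lists named 20 of 21 genes and marker lists 35 of 44. The members and all lists were chosen with earlier results of these data known. log2(signal + 16) was fitted with limma 3.58.1 in R 4.3.3 (a mean per group, 9 residual degrees of freedom), checked on simulated data. Named were all members and partners by their brightest probe set (highest mean log2 value), other member probe sets by their change, and per member the 2 most similar genes. Figures used Python 3.11.15 and matplotlib 3.10.9. The alternatives were other scalings, pseudocount, filter, prior, thresholds, array weights, fewer arrays, 1 probe set per gene and a replicate block.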

Additional observations from a re-analysis of the deposited data

Results flagged for a closer look

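In 6 of 90 groups of 4 arrays, the highest or lowest array stood far from the others by Dixon's criterion, which flags about 1 group in 20 by chance. Of these, 3 were of CTLH genes. Rmnd5b in REC replicate 3 had a signal of 762.5, above 460.8 to 501.9 in the other REC arrays. Armc8 was at 114.1 in CH replicate 2, below 139.8 to 145.4, and at 126.3 in REC replicate 1, below 214.9 to 228.0. Among partner genes, Hmgcs1 was at 654.5 in CH replicate 3, above 195.6 to 229.6, and Smu1 at 699.0 in NX replicate 3, above 483.4 to 498.9. Ypel4 was at 1.41 in NX replicate 1, below 20.2 to 24.3.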

How the results depend on the processing

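Of 720 values of CTLH genes under alternatives, 678 stayed on their side of the threshold, 35 lost a call, 7 gained one and 0 called values changed sign. Of the 678, 14 uncalled values had the other sign, all for Mkln1 or, in REC against NX, for Ranbp9, Gid8 and Armc8. Of 1431 values of partner genes, 1353 stayed on their side (37 uncalled ones with the other sign, Gid4 and Zmynd19 in CH among them), 46 lost a call, 29 gained one and 3 reversed, all on hybridization control scaling: Ranbp2 in CH against NX (-1.47) and in CH against REC (-1.43), and Gid4 in CH against REC (-1.70). With 1 probe set per gene, 8 of 10 CTLH genes were called in CH against NX, 4 in REC against NX and 8 in CH against REC, beside 28.6%, 4.29% and 35.6% of 18194 genes, though the CTLH genes were chosen on these contrasts. At an adjusted p under 0.001 the CTLH count in REC against NX fell from 11 to 3, and the partner counts were 12 in CH, 0 in REC (limma, 13 at an unadjusted p under 0.05 of either direction) and 14 in CH against REC, from 25, 5 and 23. On hybridization control scaling the partner counts were 40, 10 (9 higher) and 50. The partner count in REC was also 2 under quantile normalization, 1 with a pseudocount of 1 and 2 without moderation, and it was 1 to 5 with any 1 array left out. With arrays centred on their median the partner calls of CH against REC split into 7 higher and 19 lower, from 11 and 12. The cause was not tested.

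The titles do not say that same-numbered mice were paired. The deviations of same-numbered arrays correlated from -0.203 to 0.436, highest for NX and CH replicate 1. Of 12 arrays, 5 correlated best with an array of their own number. Whether same-numbered arrays were processed together was not tested. With the replicate block 18, 10 and 20 CTLH probe sets were called in the 3 comparisons, from 18, 11 and 20, and 25, 5 and 24 partner probe sets. The median within-group r of the CTLH pairs was 0.19 under quantile normalization, 0.70 with median centring, 0.50 on hybridization control scaling (added after the data were seen) and 0.18 to 0.44 with any 1 array left out.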
